A study of Schizosaccharomyces pombe with 36 samples.

Results

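Loss of Tra2 was followed in 6 of the 36 RNA-seq libraries of the series, chosen by strain, treatment and time alone. They come from the conditional knockout strain tra2-CKO (genotype cre-ER lox-tra2-lox), in which loxP sites flank tra2 and a Cre recombinase fused to the estrogen receptor (CreER) is switched on by β-estradiol. Cultures in rich YES medium received either β-estradiol, which excises tra2, or the solvent DMSO, which leaves it in place, for 21 h (n = 3 cultures in each group), and polyadenylated RNA was sequenced from mid-log cells. The creER strain (genotype cre-ER), which carries the recombinase and no floxed gene, received the same treatments for 21 h (n = 3 and 3), so that genes responding to β-estradiol or to active Cre could be set apart. The tti2-CKO strain (genotype cre-ER lox-tti2-lox), in which β-estradiol removes a different essential gene, was treated for 18 h and is used only where stated. All 3 strains carry the recombinase in every group. Each strain is a single labelled line.

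NuA4 is a histone acetyltransferase complex whose catalytic subunit, Mst1 in fission yeast and Esa1 in budding yeast, acetylates histones H4 and H2A at promoters. Tra2 is its largest subunit, a pseudokinase that has the fold of the PIKK kinases without their activity, and it is the surface through which DNA-bound activators recruit the complex. Fission yeast has a second copy of the gene, tra1, whose product belongs to the coactivator SAGA, and unlike tra1, tra2 is essential for growth.

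The 6 libraries held between 6041233 and 7694280 counts in genes. The DMSO culture of replicate 1 stood apart from the others. It differed by more than 2-fold from the other DMSO cultures at 87 genes (1.77% of those tested), against 27 and 41 genes for DMSO replicates 2 and 3 and 0 to 12 for the β-estradiol cultures. Its correlation with the others across genes was 0.982 to 0.983, against 0.993 between DMSO replicates 2 and 3. Counts that rest on this library are given with and without it. These are bulk samples, in which fewer cells making an RNA and less of that RNA in each cell cannot be told apart.

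The tra2 transcript itself fell to 6.9% of its DMSO level. Its CPM, the count relative to the library total as scaled by TMM, was 127, 116 and 108 in DMSO replicates 1 to 3 and 7.02, 7.72 and 9.58 in β-estradiol replicates 1 to 3, a log2 fold change of −3.86 ± 0.12 (SE, adjusted p = 1.04e-06 by the quasi-likelihood test of edgeR). The groups were far apart, and the low values match the label of every library. In creER the same treatment left tra2 between 126 and 149 CPM in all 6 cultures (log2 0.17, adjusted p = 0.403). The next gene entry, fal1, an RNA helicase gene, also fell, from 153, 166 and 163 to 97.9, 104 and 108 CPM (log2 −0.64 ± 0.06, adjusted p = 0.000195), and mod21, a gamma-tubulin complex subunit gene on the other side, rose by log2 0.77. The other 4 neighbours within 3 gene entries, yam8, shk2, trk2 and elo1, had log2 values from −0.19 to 0.21 and did not pass the test.

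After loss of Tra2 more transcripts rose than fell relative to their library. The TMM scaling takes most genes as unchanged, so a change in the total RNA of a cell could not be seen. Genes with an adjusted p of 0.01 or less and a change of 1.5-fold or more are called. Of 4929 genes tested in tra2-CKO, 497 were called (10.1%), with 380 higher (7.71%) and 117 lower (2.37%). The rises were also the larger changes, since 207 genes rose at least 2-fold and 69 at least 4-fold, against 40 and 6 that fell as far. The median log2 change over all genes tested was 0.012. Calls were most frequent among weakly expressed genes, with 24.3% of genes under a mean of 10 CPM called higher, against 9.3% at 10 to 100 CPM, 4.1% at 100 to 1000 CPM and 2.8% above 1000 CPM. A weak gene can pass the filter on low counts through the group in which it is high, which by itself favours rises in the lowest class. With at least 10 counts asked of every library, 450 of 4830 genes were called. Without DMSO replicate 1, the count of called genes was 612, and without any other single library it was 369 to 456.

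The control strain responded to β-estradiol at far fewer genes, but in the same direction at most of those called in tra2-CKO. In creER, 56 of 4904 genes were called (1.14%), 49 higher and 7 lower. Of these, 47 were among the 380 genes higher in tra2-CKO (12.4% of those and 95.9% of the 49), and 6 were among the 117 lower (5.1% and 85.7%). No gene was called in opposite directions. The 366 genes higher in tra2-CKO that were tested in creER had a median log2 of 1.05 in tra2-CKO and 0.45 in creER, and 339 of them were above 0 in creER. The 117 lower genes had medians of −0.86 and −0.27. Both sets were chosen by their change in tra2-CKO, so larger medians there follow in part from the choice. The creER replicates of like number deviated together, and when this number entered the fit as a block 182 genes were called in creER, and 503 in tra2-CKO.

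The difference between the strains was then tested itself, as the tra2-CKO response minus the creER response over 12 libraries. It was called at 19 of 4946 genes (0.384%), 12 higher and 7 lower in tra2-CKO. With the replicate number as a block, 83 genes were called, and with the block set separately in each strain, a fit added after the data were seen, 62 were. All 19 genes were among both. Apart from tra2, each of the 19 lost its call when at least 1 of the 12 libraries was left out, and the count fell to 1 without DMSO replicate 2 or β-estradiol replicate 2 or 3 of creER, or without DMSO replicate 3 of tra2-CKO. With the solvent alone, tra2-CKO and creER differed at 0 of 4879 genes by edgeR, with 260 at an unadjusted p under 0.05. DESeq2 called 2 genes there, and edgeR with the replicate block 27.

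The 19 genes include regulators of transcription. Among the genes with a larger rise in tra2-CKO, tbp1 encodes the TATA-binding protein. Its CPM was 263, 312 and 280 in DMSO and 717, 638 and 690 in β-estradiol, while in creER it lay between 195 and 291 in all 6 cultures. The difference of the log2 responses was 1.28 ± 0.19 (adjusted p = 0.00856). Another, bdf2, encodes a bromodomain protein of the kind that binds acetylated histone H4. It rose from 159, 179 and 156 to 394, 348 and 421 CPM, against 131 to 166 CPM in the creER cultures (difference 1.03 ± 0.12, adjusted p = 0.00325). Both genes had β-estradiol values above every DMSO value and above every creER value, which follows in part from their choice by the test of the difference. The largest differences upward were at ecl1, an extender of chronological lifespan in fission yeast (2.57), rtc3, of the SBDS family (2.46), and the methyltransferase gene SPCC70.08c (2.41). Transcripts of ecl1 went from 34.4, 27.6 and 29.1 to 202, 176 and 102 CPM, and stayed between 19.9 and 32.0 CPM in creER. The proteinase B inhibitor gene pbi2 went from 30.9, 25.2 and 25.5 to 86.4, 82.2 and 84.9 CPM (difference 1.51). The other genes with a larger rise were gst2, obr1, hsp90, ish1, gde1 and mde6, and the other larger falls were at fal1 and SPCC1919.07.

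Genes with a stronger fall in tra2-CKO than in creER included rmi1, whose product works with a RecQ helicase in genome stability. Its CPM went from 17.7, 17.5 and 21.0 to 4.98, 6.43 and 5.02 (log2 −1.77 ± 0.18), and from 29.8 to 32.0 to between 22.7 and 30.6 in creER (difference −1.65, adjusted p = 0.00448). The purine synthesis gene ade8, which overlaps a neighbour on its strand, fell to 203, 189 and 211 CPM from 423, 413 and 466 (difference −0.77). The septation scaffold gene cdc11 fell from 119, 100 and 97.8 to 54.3, 56.6 and 57.9 CPM (difference −0.84). In all 3 genes the treated and untreated tra2-CKO cultures did not overlap, which follows in part from their choice by the test of the difference. SPCC569.03 was called for the difference (−1.46) without being called in tra2-CKO (log2 −0.79, adjusted p = 0.0141), and 23.1% of its 50-base stretches are found again at other sites of the genome.

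Several chaperone genes rose strongly. The list holds 22 chaperone and heat shock genes, whose products refold or hold unfolded proteins. All were tested in tra2-CKO, and 9 were called higher (40.9%, against 7.71% of all genes tested) and 0 lower. Their median log2 was 0.43, and 0.26 in creER, where 3 were called higher. The summed CPM of the list went from between 16620 and 16970 in DMSO to between 22290 and 23540 in β-estradiol. Without DMSO replicate 3 of tra2-CKO, 6 were called.

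Heat shock genes are bound by the factor Hsf1, which recognises inverted repeats of the letters GAA. The motif GAANNTTC, searched in the 300 bases from 250 before to 50 after each annotated gene start, was present in 12 of the 22 chaperone promoters (54.5%) and in 11.1% of the 4926 promoters read. It reads the same on both strands. Of the 9 chaperone genes called, 6 held it, all within the 100 bases printed here, which begin 120 bases before the gene start. They are shown 5′ to 3′ on the strand of the gene, from RefSeq (assembly ASM294v3), with the motif in capitals, because these are the called chaperone genes that held it.
ssa1: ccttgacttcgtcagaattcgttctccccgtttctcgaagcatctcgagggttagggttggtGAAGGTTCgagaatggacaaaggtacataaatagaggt
hsp16: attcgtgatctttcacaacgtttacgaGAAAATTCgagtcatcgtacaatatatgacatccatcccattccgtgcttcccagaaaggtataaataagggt
psi1: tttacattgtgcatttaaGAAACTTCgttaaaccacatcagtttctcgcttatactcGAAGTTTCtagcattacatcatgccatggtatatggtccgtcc
sti1: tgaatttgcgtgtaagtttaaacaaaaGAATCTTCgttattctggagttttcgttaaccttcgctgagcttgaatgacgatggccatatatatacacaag
hsp90: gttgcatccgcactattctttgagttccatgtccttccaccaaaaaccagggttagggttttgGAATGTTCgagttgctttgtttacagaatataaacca
ssa2: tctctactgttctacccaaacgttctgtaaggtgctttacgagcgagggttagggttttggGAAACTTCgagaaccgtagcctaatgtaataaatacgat

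On that assembly they lie at I:2297985-2298084 (minus strand) for ssa1, II:2661013-2661112 (minus strand) for hsp16, III:2195555-2195654 (minus strand) for psi1, III:1263596-1263695 (minus strand) for sti1, I:3891160-3891259 (minus strand) for hsp90, III:2056923-2057022 (plus strand) for ssa2. The motif began 57, 58 and 59 bases before the start in hsp90, ssa1 and ssa2, and the promoter of psi1 held 2 copies. The promoters of hsp104, hsp9 and hsp78, whose transcripts also rose, held no match in the window. Among all genes called higher, 14.3% of 378 promoters held the motif, and among those called lower, 7.7% of 117.

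Of the genes in this list, ssa1, an Hsp70 gene, changed most. Its CPM was 50.2, 17.5 and 22.4 in DMSO and 859, 721 and 1351 in β-estradiol, a log2 change of 5.03 ± 0.42 (32.7-fold, adjusted p = 0.000103). In creER it rose less, from 26.2 to 44.3 CPM to between 203 and 256 (log2 2.65). The 2 strains overlapped in DMSO and not in β-estradiol, yet the difference of 2.36 had an adjusted p of 0.0326 and was not called without a block. With the replicate number as a block, ssa1, psi1 and sti1 were called for this difference beside hsp90.

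The small heat shock gene hsp16 went from 44.7, 12.2 and 17.2 to 486, 430 and 987 CPM (log2 4.69 ± 0.52). The disaggregase gene hsp104 went from 72.0, 38.5 and 42.5 to 421, 289 and 1243 CPM (log2 3.68 ± 0.55). In creER the log2 changes were 2.11 and 1.82, both called. Of the 3 β-estradiol cultures of tra2-CKO, replicate 3 was the highest for ssa1, hsp16, hsp104 and hsp9, and the lowest for psi1 and ssa2. The call of hsp104 was lost without DMSO replicate 3 (adjusted p = 0.0112).

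Transcripts of Hsp90 and of its cochaperone Sti1 rose too. The hsp90 gene gave 1229, 1210 and 1051 CPM in DMSO and 2734, 2582 and 2816 CPM in β-estradiol (log2 1.22 ± 0.08, adjusted p = 3.12e-05). In creER it lay between 1178 and 1338 CPM in DMSO and between 1473 and 1531 CPM in β-estradiol, and the difference of the responses, 0.94 ± 0.12, was called (adjusted p = 0.0042). Its cochaperone gene sti1 rose by log2 1.25 and the Hsp40 gene psi1 by log2 2.34, from 55.1, 32.7 and 38.2 to 243, 236 and 154 CPM. The second Hsp70 gene, ssa2, went from 1335, 1367 and 1047 to 2876, 3106 and 1884.3 CPM (log2 1.07 ± 0.18). It overlaps another gene on its strand, and its call was lost without DMSO replicate 3 or β-estradiol replicate 1 or 2 (adjusted p up to 0.0144). The other called members were hsp9 (log2 2.19) and the mitochondrial disaggregase gene hsp78 (1.12), and 13 were not called, among them hsf1 (0.40), cdc37 (0.32) and the endoplasmic reticulum Hsp70 gene bip1 (0.26).

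**Figure D1:**
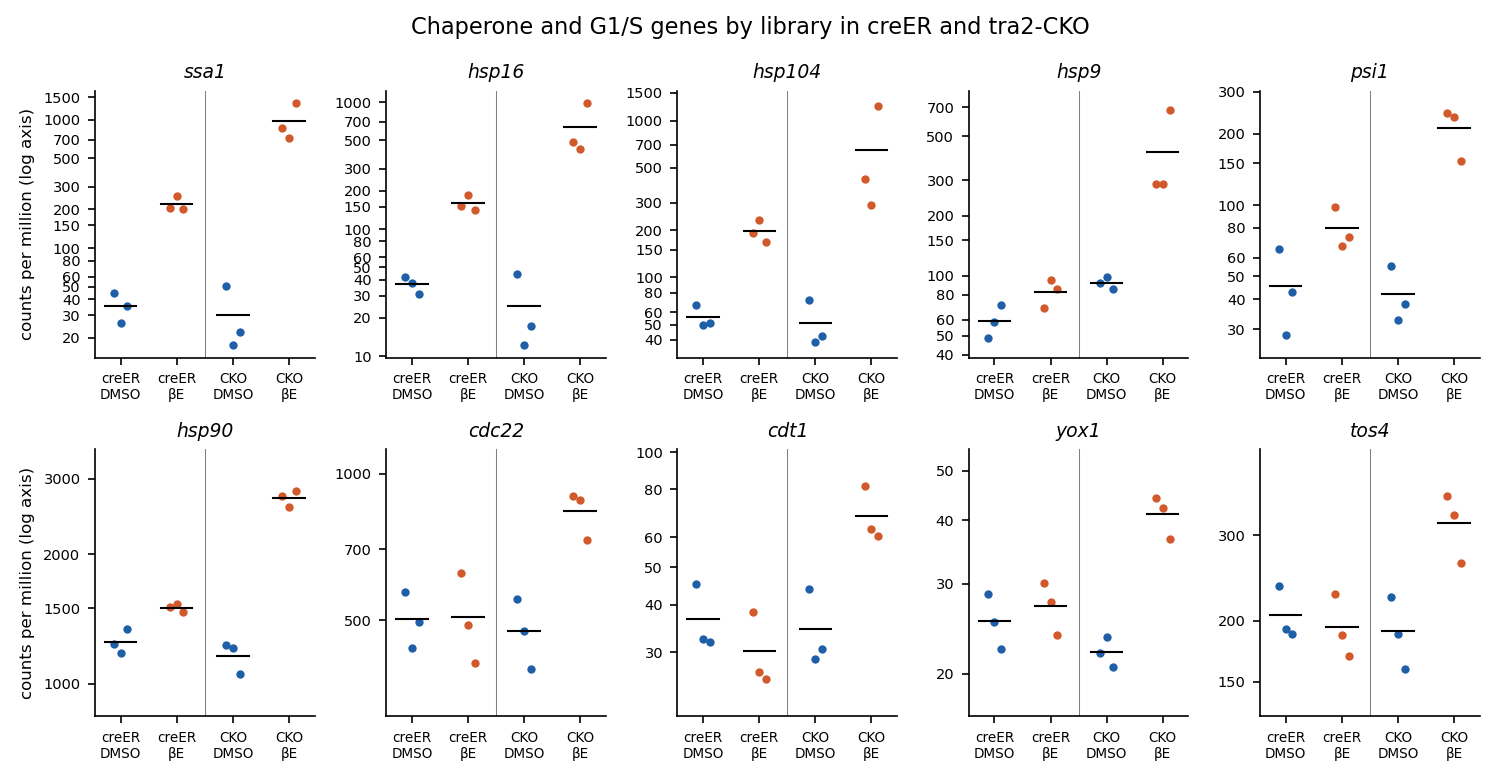
CPM on log axes for 6 chaperone genes and 4 genes of the G1/S transition in creER and tra2-CKO (CKO), with DMSO in blue and β-estradiol (βE) in orange. Points are cultures, in order of replicate number, and bars are means of 3. After β-estradiol the chaperone genes were higher in tra2-CKO than in creER, and the G1/S genes were called in tra2-CKO and not in creER. Of these 10 genes, the difference between the strains was called at hsp90 alone.

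Most core environmental stress genes rose. Core environmental stress genes are induced by many insults through the kinase Sty1 and the factor Atf1. Of 22 tested, 14 were called higher (63.6%, against 7.71% of all genes tested) and 0 lower. The median log2 was 0.90, against 0.47 in creER, where 3 were called. Of the 14, hsp16 and hsp104 had the largest values, and these and hsp9 are in the chaperone list as well. The metallothionein gene zym1 went from 21.8, 14.5 and 13.9 to 75.1, 66.3 and 139 CPM (log2 2.48 ± 0.31), and the glutaredoxin gene grx1 from 89.5, 74.5 and 75.1 to 224, 238 and 226 CPM (log2 1.53 ± 0.08). Both also rose in creER, by log2 1.37 and 1.16, and neither difference between the strains was called (adjusted p = 0.201 and 0.182). In ish1, a nuclear envelope gene, 3 close DMSO values of 40.8, 40.2 and 40.9 CPM became 137, 122 and 155 CPM (log2 1.76 ± 0.09), and the rise was larger than in creER by 1.03 (adjusted p = 0.00523). The trehalose synthesis gene tps1 (log2 1.56), the catalase gene ctt1 (0.87) and the glutathione peroxidase gene gpx1 (0.69) also rose. In creER these 3 changed by log2 0.55, 0.42 and 0.05. Of the 22 genes, the difference between the strains was called at ish1 alone.

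Some redox genes rose as well. Of 21 genes of glutathione and redox defence, 5 were called higher (23.8%, against 7.71% of all genes tested) and 0 lower. The median log2 was 0.28, and 0.00 in creER, where 1 was called higher. Of the 5, gpx1, ctt1 and grx1 are stress genes given above. The quinone reductase gene obr1 went from 578, 574 and 480 to 1722, 1945 and 1309 CPM (log2 1.61 ± 0.14). The glutathione S-transferase gene gst2 went from 131, 136 and 132 to 378, 437 and 290 CPM (log2 1.47 ± 0.13). Neither was called in creER (log2 0.25 and 0.11, adjusted p = 0.459 and 0.803), and at both the difference between strains was 1.34 (adjusted p = 0.00856). The thioredoxin genes trx1 and trx2 (log2 0.04 and 0.02) and the regulator pap1 (0.28) were not called.

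**Figure D2:**
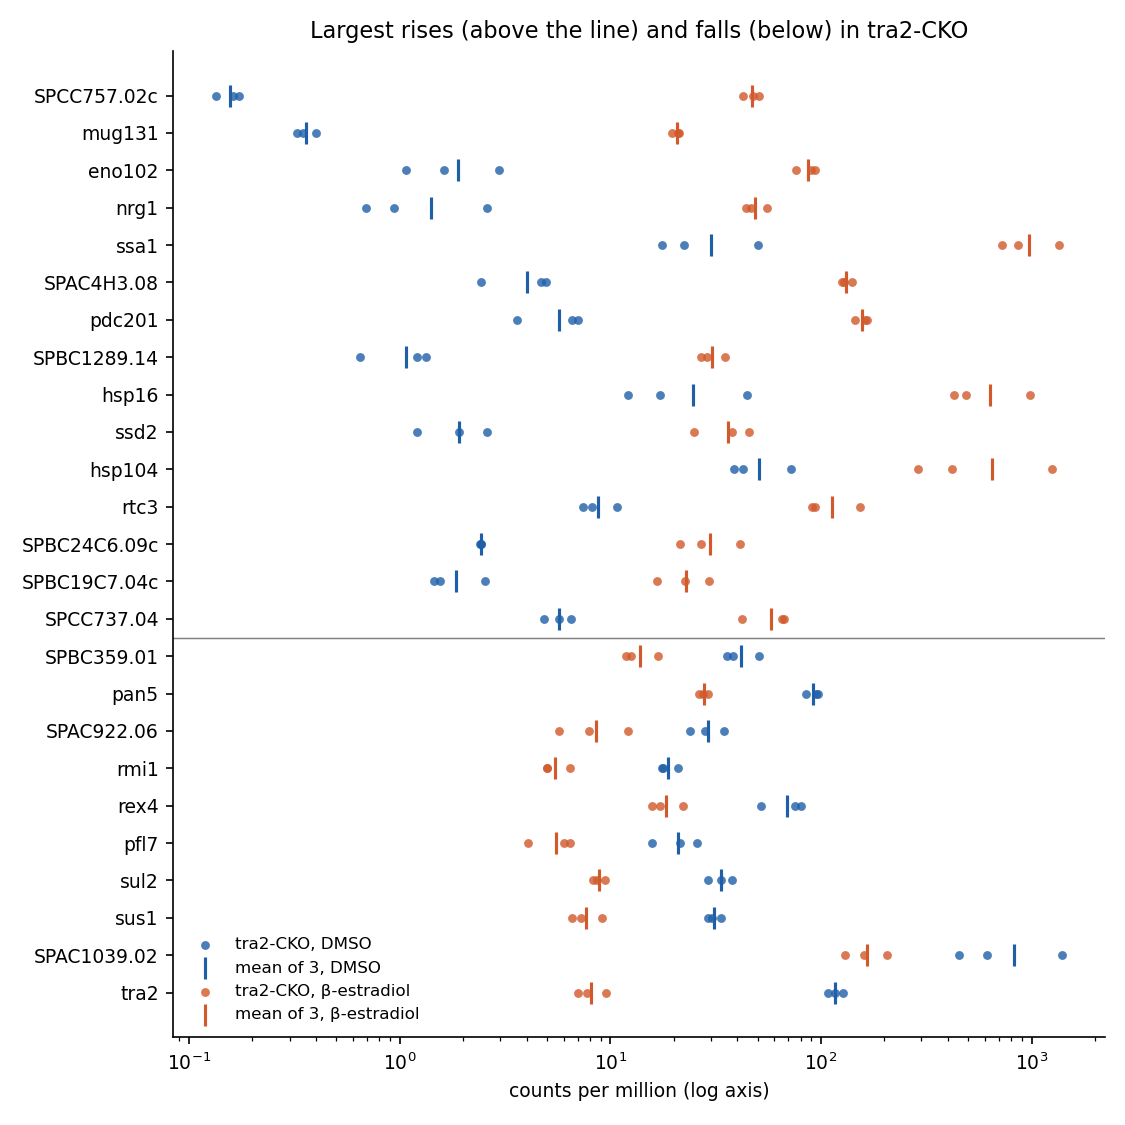
CPM on a log axis for the 15 largest rises and the 10 largest falls in tra2-CKO among called genes that average 10 CPM or more and whose groups do not overlap. Points are cultures and ticks are means of 3. The rises run from SPCC757.02c at the top to SPCC737.04, and tra2 is the last of the falls.

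Most of the 15 largest rises were shared with the control strain. Each was larger in tra2-CKO than in creER, which follows in part from their ranking by the change in tra2-CKO. Of the 15, 12 were also called in creER, 9 were also called in tti2-CKO, and the difference from creER was called at 1, rtc3. They include ssa1, hsp16 and hsp104. SPCC757.02c, annotated as an epimerase gene, led the list with 3 counts in the DMSO libraries together and 1002 in the β-estradiol libraries, a ratio of 323 (95% counting interval 110 to 1568), and it rose in creER too (log2 6.66). The meiotically upregulated gene mug131 held 7 counts and 438, a ratio of 60.5 (29.1 to 151), with a log2 of 5.24 in creER. These intervals cover counting error only.

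Of the 15, eno102 and pdc201 belong to the list of glycolysis and fermentation. The enolase gene eno102 rose from 1.62, 1.07 and 2.95 to 93.2, 89.3 and 76.4 CPM (log2 5.56 ± 0.22, and 3.33 in creER). The pyruvate decarboxylase gene pdc201 rose from 6.99, 3.61 and 6.59 to 162, 165 and 145 CPM (log2 4.81 ± 0.16), and almost as far in creER, to between 133 and 138 CPM (log2 4.11). The dehydrogenase gene SPAC4H3.08 rose from 4.71, 4.95 and 2.43 to 126, 141 and 129 CPM (adjusted p = 1.04e-06, log2 3.38 in creER). In each the groups were far apart, which follows in part from their choice among genes whose groups do not overlap. Most of the list did not pass the test, since of 19 genes of glycolysis and fermentation 3 were called higher and 0 lower, with a median log2 of 0.02. The third was pdc102, at 0.134 to 0.65 CPM in DMSO and 1.53 to 2.83 CPM in β-estradiol, which lost its call with the replicate block, with no filter, or without any library but DMSO replicate 1 (adjusted p up to 0.0403). The summed CPM of the list was highest in DMSO replicate 1 (68300, against 52850 and 58980 in the other DMSO cultures), and without that library 5 were called higher.

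Of the rest of the 15, the permease gene nrg1 rose from 2.60, 0.937 and 0.694 to 46.3, 55.2 and 44.1 CPM (log2 5.10 ± 0.29). In creER it reached 5.54 to 13.6 CPM and was not called (log2 2.70, adjusted p = 0.0505). The succinate-semialdehyde dehydrogenase gene ssd2 rose from 2.60, 1.20 and 1.91 to 24.9, 37.9 and 45.5 CPM (log2 4.26 ± 0.33, and 1.71 in creER). The SBDS family gene rtc3 rose from 10.7, 8.16 and 7.46 to 90.6, 93.5 and 154 CPM (log2 3.68 ± 0.26), and in creER from 9.52 to 11.1 CPM to between 22.4 and 25.9. The difference of 2.46 had an adjusted p of 0.0042. The others, SPBC1289.14, SPBC24C6.09c, SPBC19C7.04c and SPCC737.04, had log2 values of 3.36 to 4.78.

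The 10 largest falls were smaller. After tra2 came SPAC1039.02, annotated as a phosphatase gene, at 1401, 451 and 615 CPM in DMSO and 160, 130 and 205 CPM in β-estradiol (log2 −2.32 ± 0.40). Its highest value was that of DMSO replicate 1, and its call was lost without β-estradiol replicate 1 or 2 (adjusted p up to 0.0158). The gene sus1, whose product is shared by SAGA and the mRNA export complex TREX-2, fell from 33.6, 30.5 and 29.0 to 7.28, 9.15 and 6.59 CPM (log2 −2.01 ± 0.16), but no more than in creER (log2 −2.34). Likewise sul2, a sulfate transporter gene, and pan5, a pantothenate synthesis gene, fell in both strains (log2 −1.93 and −1.73 in tra2-CKO, −1.64 and −1.31 in creER). In all, 4 of the 10 were also called in creER, and the difference between strains was called at tra2 and rmi1. SPAC922.06 fell from 34.8, 24.0 and 28.3 to 7.92, 5.72 and 12.1 CPM (log2 −1.76 ± 0.26), with −0.26 in creER and a difference that was not called (adjusted p = 0.0775). The exonuclease gene rex4 (−1.92), the flocculin gene pfl7 (−1.93) and the permease gene SPBC359.01 (−1.59) complete the list.

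SPCC1884.01, a gene of unknown product that the study followed by other means, was at 10.1, 8.70 and 11.1 CPM in DMSO and 2.04, 1.86 and 1.88 CPM in β-estradiol (log2 −2.35 ± 0.22, adjusted p = 0.000159), below the level set for the largest falls. SPAC977.12, an L-asparaginase gene, fell from 64.8, 79.0 and 83.9 to 27.2, 33.0 and 30.8 CPM (log2 −1.33 ± 0.12), but 73.3% of its 50-base stretches recur at other sites, so its reads cannot be assigned with certainty. In creER the changes were −0.53 and −0.38, not called, and the differences of −1.83 and −0.96 were not called either (adjusted p = 0.0158 and 0.0108). The transporter gene SPCC569.05c (log2 −0.30), the phosphate transporter gene pho84 (0.15), the SAGA gene spt20 (−0.03) and act1 (0.12) had overlapping groups or small changes and were not called.

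The genes for the rest of NuA4 kept their levels within 1.5-fold. Of 13 subunit genes, tra2 alone was called, and the other 12 ranged from a log2 of −0.42 (alp13, a chromodomain subunit) to 0.40 (epl1, which links the catalytic subunit to the complex). The catalytic subunit gene mst1 went from 83.0, 95.4 and 86.4 to 92.4, 101 and 99.8 CPM (log2 0.14 ± 0.07, adjusted p = 0.144). The scaffold gene vid21 went from 123, 114 and 116 to 114, 113 and 106 CPM (log2 −0.08). At alp13, epl1 and bdc1 the change was under the fold set for a call while the adjusted p was 0.00117, 0.0063 and 0.00687. The paralogue tra1 went from 117, 106 and 106 to 133, 124 and 134 CPM (log2 0.25 ± 0.07, adjusted p = 0.0176).

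Other chromatin genes moved little. Of 19 SAGA genes, sus1 was called lower, and the median log2 was −0.01. Of 20 genes for other acetyltransferases and deacetylases, cti6, of the Rpd3L deacetylase complex, was called lower (log2 −0.61), and lost that call without DMSO replicate 3 or β-estradiol replicate 1 or 2 (adjusted p up to 0.017). Of 18 genes for histone H2A.Z exchange and the Swr1 and Ino80 complexes, which share subunits with NuA4, bdf2 was called, and a second member without β-estradiol replicate 2. None of 10 histone genes was called by edgeR, with log2 values from −0.11 to 0.12. The TTT complex loads pseudokinases such as Tra2 into their complexes, and of 10 TTT, Rvb and PIKK genes tti1 was called higher, from 12.2, 14.99 and 10.6 to 24.8, 24.4 and 21.2 CPM (log2 0.89). It overlaps another gene on its strand and was not called without DMSO replicate 3 or β-estradiol replicate 1 or 2 (adjusted p up to 0.0187).

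**Figure D3:**
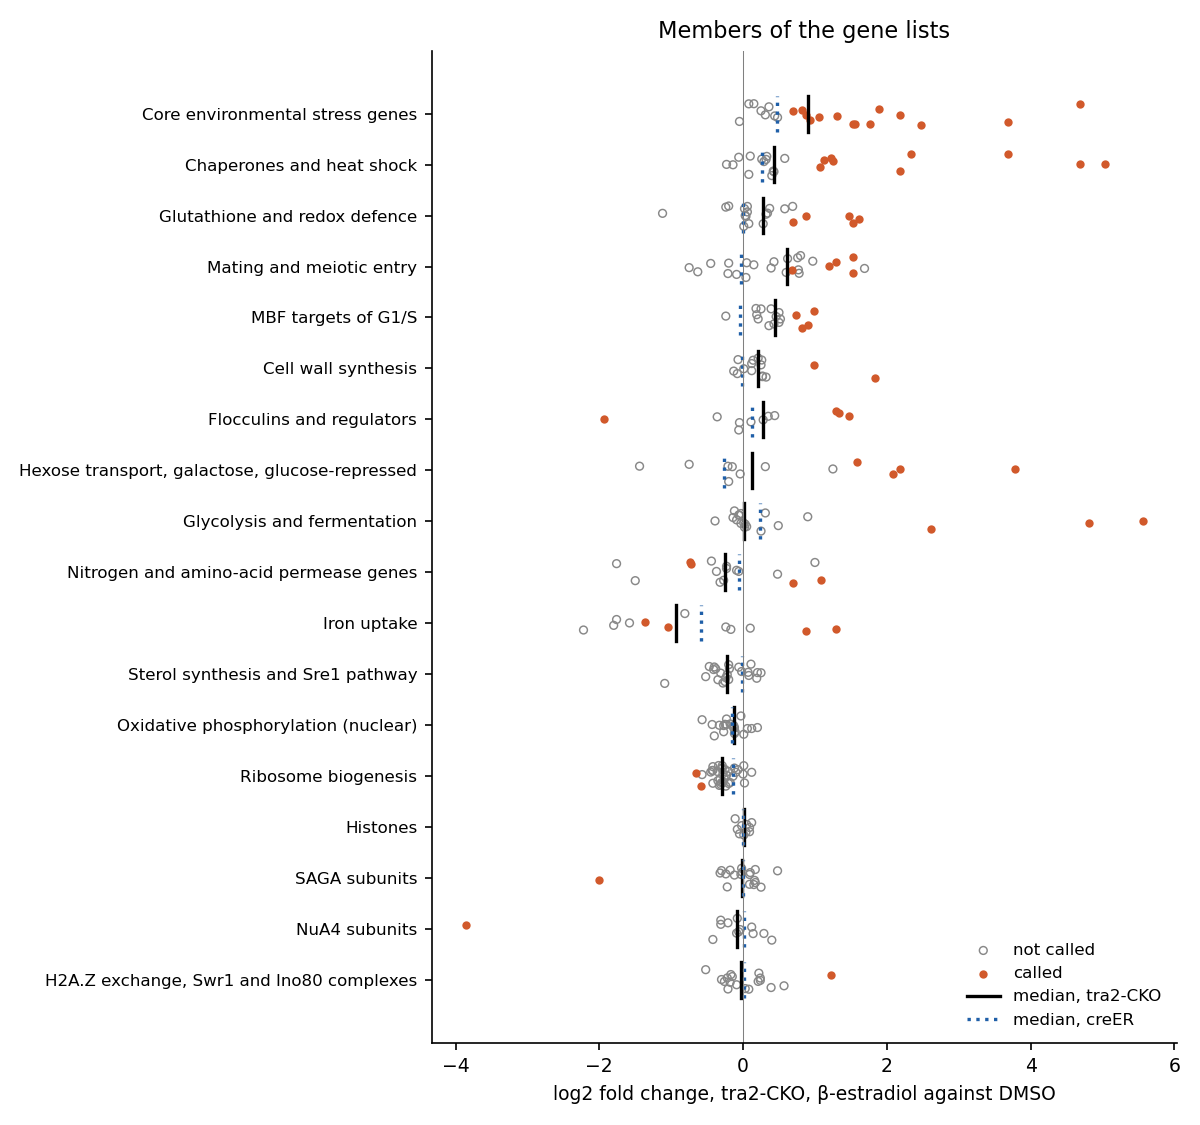
Log2 fold changes in tra2-CKO of the tested members of 18 gene lists, 1 point per gene, with called genes filled. Black bars are list medians in tra2-CKO and dotted blue bars are medians of the same lists in creER. Of the lists plotted, the stress and chaperone lists hold the most genes called higher, 14 and 9, the furthest point to the right is eno102 in the glycolysis list, and the NuA4, SAGA and histone medians lie near 0, with outlying points at tra2 and sus1.

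Some genes of the G1/S transition rose. They are transcribed by the MBF complex, which binds the MCB box ACGCGT, and many serve DNA replication. Of 16 tested, 4 were called higher (25.0%, against 7.71% of all genes tested) and 0 lower. In all 15 were above 0, and the median log2 was 0.45, against −0.04 in creER, where none of the 16 was called. The box, a palindrome, was present in 9 of the 16 promoters (56.2%) and in 3.2% of all promoters read. It was present in those of all 4 called genes, which are shown for that reason as before, from 120 bases before the gene start (RefSeq, ASM294v3), with the box in capitals.
cdt1: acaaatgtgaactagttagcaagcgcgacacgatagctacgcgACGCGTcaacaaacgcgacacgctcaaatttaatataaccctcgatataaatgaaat
yox1: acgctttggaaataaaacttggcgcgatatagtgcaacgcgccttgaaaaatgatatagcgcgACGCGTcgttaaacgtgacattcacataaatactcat
cdc22: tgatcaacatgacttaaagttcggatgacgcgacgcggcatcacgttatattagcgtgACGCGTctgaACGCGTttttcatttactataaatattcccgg
tos4: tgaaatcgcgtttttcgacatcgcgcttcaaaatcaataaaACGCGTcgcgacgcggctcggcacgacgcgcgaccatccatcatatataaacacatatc

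On that assembly they lie at II:477272-477371 (plus strand) for cdt1, II:1648112-1648211 (plus strand) for yox1, I:4226850-4226949 (plus strand) for cdc22, I:1922423-1922522 (plus strand) for tos4. The licensing factor gene cdt1 went from 44.0, 28.8 and 30.7 to 81.6, 62.9 and 60.4 CPM (log2 0.99 ± 0.18), and yox1, a corepressor gene of MBF, from 21.9, 23.6 and 20.6 to 44.2, 42.3 and 36.7 CPM (log2 0.90 ± 0.11). The ribonucleotide reductase gene cdc22, whose promoter held 2 boxes, went from 554, 475 and 398 to 898, 883 and 732 CPM (log2 0.82 ± 0.13), and tos4 rose by 0.74. In all 4 genes every β-estradiol value was above every DMSO value, which follows in part from their choice by the call. The calls were not firm, since without DMSO replicate 1 of tra2-CKO 6 genes of the list were called, without DMSO replicate 2 or 3 or β-estradiol replicate 2 the count was 2, and without β-estradiol replicate 1 it was 1. The adjusted p reached 0.0171 for cdt1, 0.0114 for cdc22 and 0.0226 for tos4 without 1 library. None of the 4 differences from creER was called (adjusted p = 0.0513 to 0.109).

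Few genes in the lists of later cell cycle steps and of the cell wall were called. Of 16 mitosis and cytokinesis genes, spo12, a regulator of mitotic exit in budding yeast, was called higher (log2 1.01, and 0.18 in creER). Of 15 cell wall genes, the spore wall glucan synthase gene bgs2 (log2 1.84, and 1.17 in creER) and the glucanase gene exg1 (0.99, and −0.10 in creER) were called higher. In creER 1 of the 15 was called higher, and no difference between the strains was called in either list.

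Mating and meiosis genes rose in part. In this list, mei2 encodes the RNA-binding protein that commits cells to meiosis, map2 a pheromone and fus1 the formin of cell fusion. Of 24 tested, 5 were called higher (20.8%) and 0 lower. Of all genes tested 7.71% were called higher, and of those under a mean of 10 CPM 24.3%. The median log2 of the list was 0.61, and −0.03 in creER, where none was called. The difference between the strains was called at none of the 24. Transcripts of mei2 went from 7.80, 6.42 and 4.34 to 18.4, 17.4 and 18.1 CPM (log2 1.53 ± 0.20), and those of fus1 from 21.3, 21.4 and 15.1 to 61.0, 49.5 and 57.3 CPM (log2 1.53 ± 0.15). The others were the MADS-box factor gene map1 (log2 1.29), map2 (1.19) and the receptor gene map3 (0.68), and ste11, the factor that activates many of these genes, was not called (0.76). Both mei2 and fus1 were weakly expressed in every tra2-CKO culture, at 61.0 CPM or less. DESeq2 and the joint fit of all 36 libraries called 8. Without β-estradiol replicate 2 of tra2-CKO 2 of the 24 were called, and without DMSO replicate 3 or β-estradiol replicate 1, 3 were. The adjusted p reached 0.0253 for map1 and 0.0205 for map2. Among 81 tested mug genes, named for rising in meiosis, no difference between the strains was called, and 3 were called higher in creER. In tra2-CKO 17 of the 81 were called higher (21.0%, against 7.71% of all genes tested and 24.3% of those under a mean of 10 CPM) and 1 lower. They include mug97 (log2 3.32, and 2.47 in creER), mug95 (3.12 and 2.24) and mug147 (2.19 and 0.60), and the count higher was 9 or 10 without DMSO replicate 3 or any 1 of the β-estradiol replicates.

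Few ribosomal protein transcripts passed the test. Of 139 genes, 135 were below 0 and the median log2 was −0.33, against −0.03 in creER, and 5 were called lower (3.6%, against 2.37% of all genes tested) and 0 higher. The difference between the strains was called at none of the 139. Their summed CPM was 194000, 183800 and 214400 in DMSO and 161200, 159400 and 153200 in β-estradiol, with no overlap. The largest called change was at rpl1603, from 122, 116 and 127 to 57.7, 65.9 and 60.9 CPM (log2 −0.99 ± 0.07). Others were rps1401 (−0.70), rps2601 (−0.63) and rpl1002 (−0.62), of which rpl1002 shares 41.3% of its windows with other sequence. The HomolD core CAGTCAC, the promoter element of these genes, was found on either strand in 124 of the 139 promoters (89.2%) and in 4.9% of all. Without DMSO replicate 2 of tra2-CKO 14 were called lower, and without DMSO replicate 3 or β-estradiol replicate 3, 2 were, rps2601 and rpl1002 losing their calls, and the joint fit of all 36 libraries gave 8. In tti2-CKO at 18 h the median was −0.64 and 82 were called lower. Of 35 ribosome biogenesis genes, mpp10 (−0.66, and −0.44 in creER) and utp4 (−0.59, and −0.26 in creER) were called lower. The median was −0.29, against −0.14 in creER, and the difference between the strains was called at none of the 35. The summed CPM of the biogenesis list in DMSO replicate 1 (13370) was close to the 12880 to 13070 of the β-estradiol cultures, against 16690 and 17660 in the other DMSO cultures. The call of utp4 was lost with the replicate block or without any library but DMSO replicate 1 (adjusted p up to 0.0174), and mpp10 lost its call without β-estradiol replicate 1 (adjusted p = 0.011), where 0 of the 35 were called, against 4 without DMSO replicate 1.

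Genes of nutrient uptake moved in both directions. In iron uptake, 12 of 13 genes were tested. The siderophore synthesis genes sib1, at 115, 95.7 and 100 CPM in DMSO and 273, 256 and 231 CPM in β-estradiol (log2 1.29 ± 0.09), and sib2 (0.87) were called higher, while the transporter gene abc3 (−1.37) and the repressor gene php4 (−1.05) were called lower. The reductive uptake and siderophore transport genes fip1, fio1, str1 and str3 had log2 values of −1.58 to −2.22 and were not called, and their list's summed CPM was lowest in DMSO replicate 1 (702, against 878 and 1239). Without that library 7 of the 12 were called lower. The median of the list was −0.93, against −0.59 in creER. The call of sib2 was lost without DMSO replicate 3 or any β-estradiol replicate (adjusted p up to 0.0254). In creER, sib1, sib2, abc3 and php4 changed by log2 0.59, 0.80, −0.93 and −0.26, and no gene of the list was called.

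Among 12 tested genes of hexose transport and galactose use, 4 were called higher (33.3%, against 7.71% of all genes tested and 24.3% of those under a mean of 10 CPM). They were the hexose transporter gene ght6, at 0.65 to 0.937 CPM in DMSO and 8.48 to 13.1 CPM in β-estradiol (log2 3.78), gal10 (2.18), the maltase gene agl1 (2.09) and the galactokinase gene gal1 (1.58). None of the 4 exceeded 88.8 CPM in any culture. The adjusted p of gal1 reached 0.0274 and that of gal10 0.0103 without 1 library, 2 of the 12 were called without DMSO replicate 3, and 6 were without DMSO replicate 1. In creER, ght6, gal10, agl1 and gal1 changed by log2 2.57, 0.61, 0.90 and −0.28, none of them called. Of 16 genes of nitrogen and amino acid uptake, the ammonium transporter gene amt3 (log2 1.09) and the eisosome gene fhn1 (0.69) were called higher and fnx2 (−0.74) and aat1 (−0.73) lower, but the count higher was 0 without any library but DMSO replicate 1, where it was 4, and the count lower was 0 without β-estradiol replicate 1. In creER, amt3, fhn1, fnx2 and aat1 changed by log2 0.50, 0.48, −0.16 and −0.45, none of them called.

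In phosphate acquisition, 6 genes were tested. The glycerophosphodiester transporter gene tgp1 rose from 9.26, 11.1 and 11.3 to 28.5, 25.2 and 26.1 CPM (log2 1.33 ± 0.14), and the kinase gene csk1 fell (−1.08). With the replicate block or without DMSO replicate 1, 2 were called higher. In creER, tgp1 and csk1 changed by log2 0.37 and −0.12, neither of them called. The glycerophosphodiesterase gene gde1 rose from 55.9, 69.5 and 57.8 to 128, 116 and 133 CPM, and more than in creER (difference 0.82, adjusted p = 0.00856). Of 11 drug efflux genes, caf5 (log2 1.00, and 0.61 in creER) was called higher, and abc3 (−1.37 and −0.93) and mfs1 (−0.73 and −0.71) lower. No gene of that list was called in creER or for the difference between the strains. In tra2-CKO the call of mfs1 was kept only without DMSO replicate 2 when 1 library was left out (adjusted p up to 0.0328). None of 23 sterol synthesis genes was called by edgeR, the largest change, at hem13 (−1.09, adjusted p = 0.0542), going with a DMSO replicate 1 of 1451 CPM against 434 and 553 in the others, and without that library 2 were called higher. None of 21 nuclear genes of oxidative phosphorylation was called either (median −0.13), and qcr6 (log2 −0.57, adjusted p = 0.000528) missed the fold, which it passed without DMSO replicate 1 or β-estradiol replicate 3. In the flocculin list, mbx2 (1.47), pfl3 (1.33, 33.7% shared windows) and pfl8 (1.29) rose and pfl7 fell, and all 3 rises were called in creER too.

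Genes near chromosome ends were called in both directions. The ends of chromosomes I and II carry heterochromatin and genes that are silent in rich medium. Of the outermost 30 gene entries of each end, 120 in all, 53 were tested and 67 did not pass the filter on low counts, which a gene can pass through the group in which it is high. Of the 53, 16 were called higher (30.2%) and 7 lower (13.2%), against 7.71% and 2.37% of all genes tested and 24.3% higher among genes under a mean of 10 CPM. The median log2 was 0.35. In creER, where 45 of the 53 were tested, it was −0.15, with 1 called higher and 2 lower. The difference between the strains was called at none of the 53. By end, 7 of 18 were higher and 1 lower at the right end of chromosome II, 5 and 2 of 13 at its left end, 3 and 2 of 13 at the right end of chromosome I, and 1 and 2 of 9 at its left end. The medians were 0.73, 1.47, 0.35 and −0.42.

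The genes called higher at the ends include eno102, nrg1, gal1 and gal10. SPAPJ695.02, of unknown product, rose from 0.65, 0.669 and 0 to 14.8, 15.9 and 9.26 CPM (adjusted p = 0.000224). The hydroxyacid dehydrogenase gene SPAC186.02c held 2 counts in the DMSO libraries and 55 in the β-estradiol libraries, a ratio of 26.6 (7.01 to 225 by counting), and was not called without DMSO replicate 3 or β-estradiol replicate 1 (adjusted p up to 0.0127). Most genes here are weakly expressed. With at least 10 counts asked of every library 7 were called higher, without DMSO replicate 3 the count was 6, without β-estradiol replicate 1 or 2 it was 8 or 7, and without DMSO replicate 1 it was 21 higher and 10 lower. The Tf2 retrotransposons could hardly be read, since 3 of 13 copies were tested and none was called by edgeR (1 by DESeq2).

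**Figure D4:**
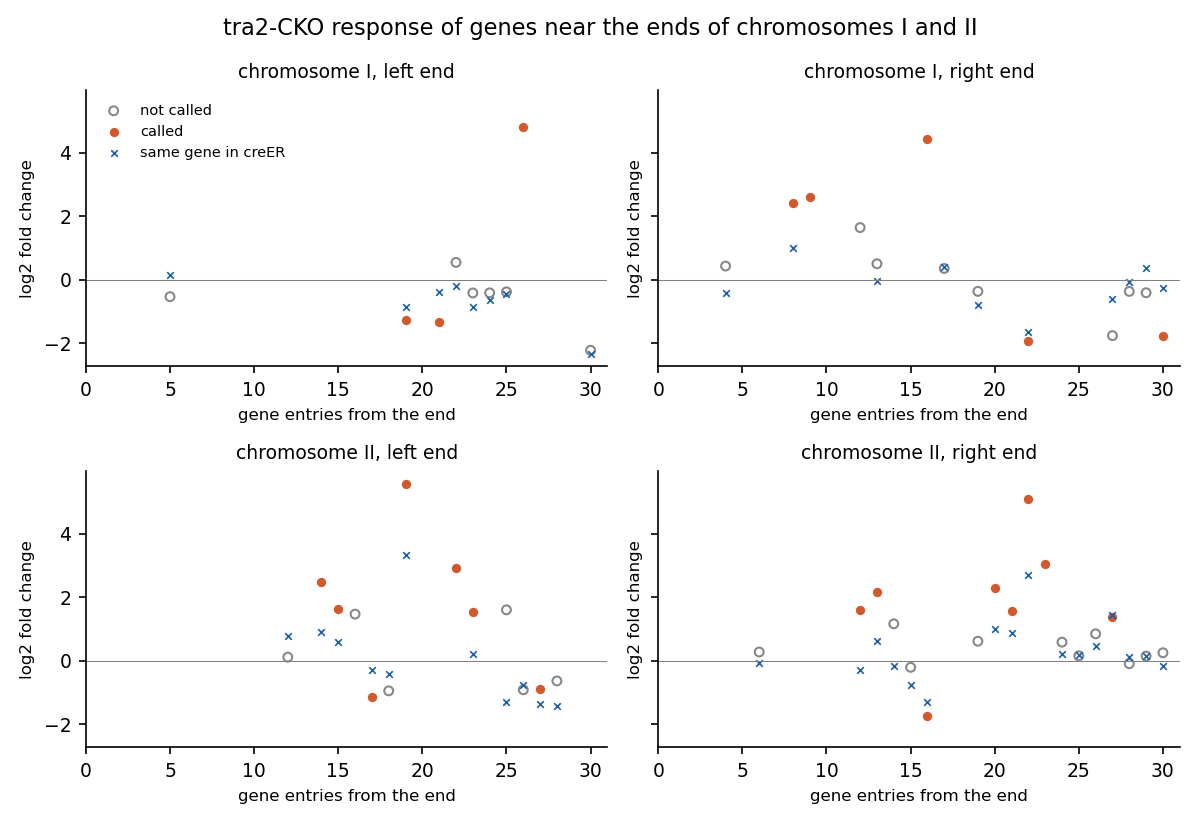
Log2 fold changes in tra2-CKO against the number of gene entries from each end of chromosomes I and II, with called genes filled and the same genes in creER as crosses. Of the 53 tested genes, 16 were called higher and 7 lower, and the right end of chromosome II holds 7 of the rises.

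Set beside loss of Tti2, the response shared part of its genes. In tti2-CKO at 18 h, 629 of 4920 genes were called (12.8%), 278 higher and 351 lower. Of the 380 genes higher in tra2-CKO, 109 were called higher there (28.7% of the 380 and 39.2% of the 278), of the 117 lower 56 were called lower (47.9%, and 15.95% of the 351), and 15 were called in opposite directions. The difference of the 2 responses was called at 303 of 4956 genes (6.11%), 178 higher and 125 lower in tra2-CKO, but the times of treatment differ. The chaperone genes ssa1 and hsp16 were among them. In tti2-CKO, ssa1 changed by log2 0.85 (not called) against 5.03 in tra2-CKO, hsp16 by 0.53 (not called) against 4.69, and hsp90 by −0.16 (not called) against 1.22. By contrast, rmi1, bdf2, tbp1 and pbi2 were called in the same direction in both, with log2 values of −1.47, 0.77, 0.91 and 1.80 in tti2-CKO and −1.77, 1.23, 1.26 and 1.64 in tra2-CKO. The gene gst2 rose in tra2-CKO and fell in tti2-CKO (log2 −1.72), a difference of 3.14, and SPAC1039.02 did the reverse (2.34 in tti2-CKO, difference −4.71).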

How the data were processed

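The authors aligned stranded, polyadenylated reads with HISAT2 2.1.0, counted them per gene with HTSeq 0.9.1 and deposited whole-number counts, not normalized, for 36 libraries. The build and annotation are not given in the sources used here. The number of table columns left unused was 0. Gene IDs were matched to the RefSeq annotation of ASM294v3 (5111 matched) for names, gene order, repeated 50-base stretches and promoter sequence.

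Each response was fitted on its own 6 libraries, and differences of responses on 12, with edgeR 4.0.16 in R 4.3.3: TMM, filterByExpr with a minimum count of 10, the two-sided quasi-likelihood F-test and Benjamini-Hochberg adjustment over all genes tested. SE is the log2 change divided by the square root of F. Calls took an adjusted p of at most 0.01 with a fold of at least 1.5. DESeq2 1.42.0 served as an alternative. Replicates are separate cultures. Like-numbered cultures deviated together weakly in tra2-CKO (correlations 0.101, 0.214 and 0.141) and more strongly in creER (0.69, 0.577 and 0.34). In tti2-CKO they did not do so consistently (0.196, −0.088 and −0.29), and the labels do not say what the number marks. Fits blocked on this number are given where they matter. At 6041233 to 7694280 counts a library, changes of genes under 10 CPM are imprecise.

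Named genes are those the study names, the 15 largest rises and 10 largest falls among called genes averaging 10 CPM or more with groups that do not overlap, the 5 largest called differences from creER, up to 4 members of each list, the NuA4 genes and the neighbours of tra2. The other genes called for the difference from creER, and single list members given for contrast, were named after their values were seen. Lists and comparisons were chosen with earlier results of these data known. The genes ade8, mpp10, ssa2 and tti1 overlap another gene on their strand, where reads may be split or discarded. One further gene list is not reported here.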

Additional observations from a re-analysis of the deposited data

Results flagged for a closer look

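At 19 named genes the log2 response to β-estradiol differed between tra2-CKO and creER by the test of the difference itself. The difference (tra2-CKO minus creER, log2) was 2.57 for ecl1, 2.46 for rtc3, 2.41 for SPCC70.08c, 1.51 for pbi2, 1.34 for gst2, 1.34 for obr1, 1.28 for tbp1, 1.09 for mde6, 1.03 for bdf2, 1.03 for ish1, 0.94 for hsp90 and 0.82 for gde1. It was negative at the others, with −4.04 for tra2, −1.65 for rmi1, −1.46 for SPCC569.03, −0.96 for SPCC1919.07, −0.84 for cdc11, −0.77 for ade8 and −0.67 for fal1. Only tra2 kept its call without each of the 12 libraries in turn.

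At 17 of the genes that the study names or that are among the largest rises and falls, the response also differed from that of tti2-CKO, which was treated for 18 h rather than 21 h, so that strain and time cannot be told apart. The difference (tra2-CKO minus tti2-CKO, log2) was 4.91 for ssd2, 4.75 for tti2, 4.13 for ssa1, 4.11 for hsp16, 3.48 for SPAC4H3.08, 3.14 for gst2, 2.79 for rtc3, 2.26 for SPBC24C6.09c, 1.88 for SPBC19C7.04c, 1.56 for SPCC569.05c and 1.49 for pdc201, and in the other direction −4.71 for SPAC1039.02, −4.17 for tra2, −3.28 for SPBC359.01, −1.91 for SPAC922.06, −1.44 for sul2 and −1.02 for pho84. The values of tra2 and tti2 follow from the gene deleted in each strain. Both sets of differences use the same tra2-CKO libraries.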

How the results depend on the processing

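The tra2-CKO response kept its direction at the called named genes under each of the 12 alternatives that gave a value, and 12 of these genes gave none with at least 10 counts asked of every library. The count of called genes was 450 to 545 under other normalization, filters, tool, block or a joint fit of the 36 libraries, against 497, and 444 with the genes called in creER removed. Leaving out 1 library gave 369 to 612. An adjusted p of at most 0.05 with no fold gave 2021 genes, and 0.01 with at least 2-fold gave 247. The creER response is less firm: 136 genes by DESeq2, 182 with the replicate block, 135 in the joint fit and 10 to 61 without 1 library, against 56. The difference between the strains gave 105 genes by DESeq2, 83 with the replicate block, 62 with the block set within each strain (added after the data were seen), 78 in the joint fit and 1 to 12 without 1 library, against 19. The DMSO comparison of the strains gave 2 by DESeq2, 27 with the replicate block, 2 in the joint fit and 0 to 0 without 1 library, against 0. The tti2-CKO response gave 455 to 610 without 1 library, and its difference from tra2-CKO 205 to 366. The causes were not tested. Of 93 called named genes, 24 lost the call under at least 1 alternative, all of them without some single library and 2, utp4 and pdc102, also otherwise. With 3 cultures a group, genes at a few CPM rest on few counts.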

Other observations

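Genes without a symbol were called more often than named ones, with 13.8% of 747 higher and 4.3% lower, against 6.6% and 2.0% of 4182. By chromosome, 8.4% of the tested genes of chromosome I, 6.8% of chromosome II and 7.5% of chromosome III were called higher, and 2.6%, 2.7% and 1.2% lower. The 11 genes of the mitochondrial genome were at 0 in every library.

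DMSO replicate 1 of creER resembled DMSO replicate 1 of tra2-CKO at single genes. SPAC1039.02 was at 1579, 589 and 635 CPM in the creER DMSO cultures, and hem13 at 1625, 354 and 529 CPM. In β-estradiol, hem13 was at 1479, 297 and 347 CPM in creER and at 384, 361 and 399 CPM in tra2-CKO.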
